A study of Caenorhabditis elegans with 2 samples.

Results

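The 40 genes described here belong to the structure, digestion, transport, lipid metabolism and yolk of the Caenorhabditis elegans intestine, and they were examined for regions of ELT-4 ChIP-seq signal. They were taken as a list of named genes by their known roles in this tissue, with earlier results of these data known. All 40 were found by symbol among the 19973 protein-coding genes on the nuclear chromosomes of the Ensembl WBcel235 annotation. A region was given to a gene when its summit lay in the gene body or up to 1000 bp upstream of the gene start. The comparison was with the other 19933 protein-coding genes. Chromatin came from whole hermaphrodite embryos of the late embryonic stage, collected 3 hours after synchronization by bleaching, of strain OP111, which carries the mutation unc-119(ed3) and the integrated transgene wgIs111 encoding ELT-4 with a C-terminal GFP-FLAG tag. Both biological replicates belonged to this 1 group, and the precipitation used an antibody against GFP, although the antibody field of the labels reads elt-4. The design held no second genotype, stage or tissue, and the promoter that drives the transgene is not given in the sources used here.

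ELT-4 is a small protein with a GATA-type zinc finger, and its gene lies near that of ELT-2, the GATA factor that drives most gene expression in the differentiated intestine. Intestinal GATA factors bind sites with the core GATA, and the extended form TGATAA is common in promoters of intestinal genes. The intestine of this animal is a tube of few large cells: it digests food, takes up peptides, ions and metals, stores lipid, carries lysosome-related gut granules, and in the adult hermaphrodite makes the yolk lipoproteins that feed the oocytes. Whole embryos mix all tissues, so strong signal in few cells and weak signal in many cannot be told apart.

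The authors deposited 30000 regions called on both replicates pooled and 30000 for each replicate alone, most of them weak. A q-value of at most 0.05 was given to 1279 pooled regions, and 342 were kept as peaks by the authors' filter on the irreproducible discovery rate (IDR). Signal is the value the authors' caller gave each region, on a scale that is not stated. Pooled signals ran from 21.3 to 346 with a median of 30.5, and the medians of the lists of replicates 1 and 2 were 16.4 and 18.3. Read depth is unknown.

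Most intestine genes held a pooled region, but few of those regions were strong. At least 1 summit lay in the window of 30 of the 40 genes (75%, exact 95% interval 58.8 to 87.3), and 59.9% of the other protein-coding genes had one. A region with a q-value of at most 0.05 was present in 4 genes (10%, interval 2.79 to 23.7), against 5.66% of the other genes. These 4 were haf-9, asp-1, ifp-1 and fat-5. An IDR peak was present in 1 gene, haf-9 (2.5%, interval 0.0633 to 13.2), against 1.65% of the others. The intervals cover the counting of genes only. The median signal of the strongest region was 39.4 over the 30 genes with a region and 35.4 over the other genes with a region. This difference was absent in the replicate 1 list, at 18.8 in both sets, and was 23.0 against 21 in the replicate 2 list. With windows cut to 1000 bp upstream and 200 bp downstream of the gene start it turned round, at 27.2 against 31.1.

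**Figure D1:**
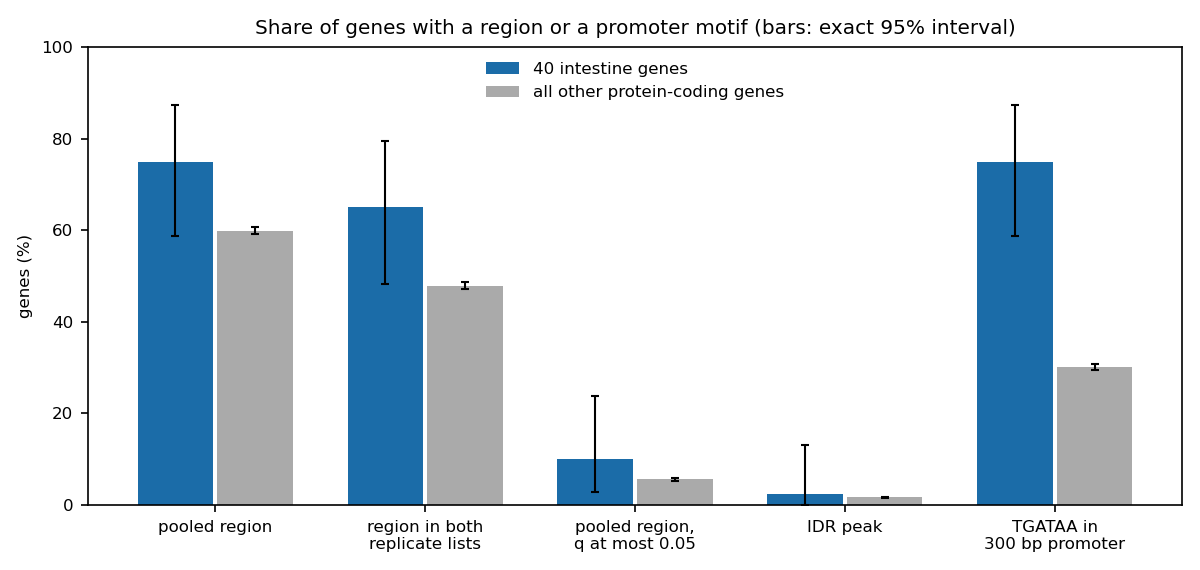
Percentage of genes (vertical axis) with each kind of region, and with TGATAA in the promoter, for the 40 intestine genes (blue, left of each pair) and all other protein-coding genes (grey, right); error bars are exact 95% intervals. The intervals of the intestine genes include the grey bar for a pooled region, q at most 0.05 and the IDR peak. For a region in both replicate lists the interval, 48.3 to 79.4, lies just above the grey bar of 47.9%. At the rates of other genes in the same window length classes this share would be 57.1%. Promoter TGATAA stood at 75% against 30.1%.

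The intestine genes had longer windows than other genes, and a longer window holds more summits. The median window, gene body plus upstream bases, was 4367 bp for the intestine genes and 3026 bp for the others. In windows over 4000 and up to 6000 bp, 7 of 10 intestine genes had a pooled region and 72.8% of other genes did; over 6000 and up to 8000 bp, 7 of 8 did, against 79.9%; over 2000 and up to 3000 bp, 8 of 11, against 51.4%. At the rates of other genes in the same 6 length classes, 27 of 40 genes would hold a region, close to the 30 counted, and 2.92 would hold one with a q-value of at most 0.05, where 4 did. Per length, the intestine windows had 3.51 summits per 10 kb and those of other genes 3.26.

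TGATAA was frequent in the promoters of these genes, which were listed by their known roles. Whether knowledge of such sites entered the list is not given in the sources used here. It was searched on both strands in the 300 bases from 250 before to 50 after the outermost annotated gene start. At least 1 TGATAA lay in 30 of 40 promoters (75%, interval 58.8 to 87.3), against 30.1% of the promoters of other genes. At least 2 lay in 16 (40%), against 7.66%. All 6 vitellogenin promoters and all 4 of metal handling held the hexamer, as did 5 of 6 of the lumen and cytoskeleton, 5 of 6 of membrane transport, 5 of 7 of digestion and 4 of 5 of the gut granules. Lipid metabolism stood apart by count, with 1 of 6. Any of 4 GATA hexamers (TGATAA itself or AGATAA, and the forms TGATAG or AGATAG) lay in 34 of 40 promoters (85%), against 54.4%. A match is a string of letters in the reference and does not show that a factor was bound.

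The 2 promoters below, from the WBcel235 genome in the direction of the gene, show the motif (capitals, TGATAA or its reverse complement) with and without a region. That of pept-1, the proton-coupled peptide transporter, lay wholly inside a pooled region of low signal, 28.3 (rank 17629), below the median of 30.5. That of lys-8, a lysozyme, held the most sites of any member, 4, with no base in a pooled region. A weak pooled region of lys-8, with a signal of 22.3, lay just upstream of this promoter, at II:5585433-5585902.
pept-1, X:6456622-6456921, plus strand: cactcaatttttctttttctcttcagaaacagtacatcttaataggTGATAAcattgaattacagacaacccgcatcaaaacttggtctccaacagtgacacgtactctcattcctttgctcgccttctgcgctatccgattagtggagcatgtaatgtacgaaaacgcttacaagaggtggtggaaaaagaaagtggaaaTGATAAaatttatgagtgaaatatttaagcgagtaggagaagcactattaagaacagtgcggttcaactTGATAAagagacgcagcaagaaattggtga
lys-8, II:5585928-5586227, plus strand: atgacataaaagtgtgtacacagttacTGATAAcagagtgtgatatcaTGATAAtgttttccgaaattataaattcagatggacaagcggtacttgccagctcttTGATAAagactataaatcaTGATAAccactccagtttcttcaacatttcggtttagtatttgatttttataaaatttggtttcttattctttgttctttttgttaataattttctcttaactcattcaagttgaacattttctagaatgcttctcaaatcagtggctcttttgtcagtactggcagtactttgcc

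Few promoter sites lay in a region. Of the 53 TGATAA sites in the members' promoters, 9 (17%) fell wholly inside a pooled region, and 21.1% of the promoter bases did. In other genes the values were 771 of 7845 sites (9.83%) and 13.1% of the bases. In both sets, then, the share of sites in regions was no larger than the share of bases. Of the 30 promoters with TGATAA, 9 touched a pooled region, and in other genes 1093 of 5996 did. Over all promoters, with or without TGATAA, 30% touched one in the members and 21.1% in other genes. Of the 9 sites, 1 belongs to haf-9. It lay not in the IDR peak of haf-9 but in a weak region upstream of the gene. That region had a pooled signal of 23.7 (rank 25055) and no match in replicate 2. The other 8 sites are shown, with 10 bases on each side and in the direction of the gene, to let their flanks be compared. They belong to ifd-1, an intermediate filament gene, pept-1, lys-1, a lysozyme gene, and mtl-1, a metallothionein gene.
ifd-1, X:8824578-8824603, minus strand: atacgaaggcTGATAAcagaaatatg
ifd-1, X:8824598-8824623, minus strand: gaaaaaatgtTGATAAgagaatacga
lys-1, V:10277650-10277675, plus strand: gtacttaattTTATCAtcaactttcc
lys-1, V:10277765-10277790, plus strand: ctgattacccTTATCActggacgttt
pept-1, X:6456658-6456683, plus strand: tcttaataggTGATAAcattgaatta
pept-1, X:6456813-6456838, plus strand: aaagtggaaaTGATAAaatttatgag
pept-1, X:6456882-6456907, plus strand: cggttcaactTGATAAagagacgcag
mtl-1, V:6691919-6691944, minus strand: ccaccctcttTTATCAcatatttgaa

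The strongest regions lay elsewhere, mostly in coding sequence. After haf-9, the 6 genes with the highest signal, all ranked among the first 1500 of 30000 pooled regions, had their strongest summit in coding sequence, and none of those 6 windows of 100 bp on each side held TGATAA. The 61 bases centred on each summit are printed to show what kind of sequence this was, in the direction of the gene. Capitals would mark TGATAA, and there are none. TGATAA lay within 100 bp of the summit in 12.5% of all pooled regions, so its absence from 6 windows is near that background. Another of the GATA hexamers searched in promoters, TGATAG, does occur in the ifp-1 sequence, in lower case.
asp-1, V:19050025-19050085, minus strand: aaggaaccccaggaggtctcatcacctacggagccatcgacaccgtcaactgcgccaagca
ifp-1, X:9677406-9677466, minus strand: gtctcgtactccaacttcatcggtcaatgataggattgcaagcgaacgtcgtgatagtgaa
fat-5, V:17725465-17725525, plus strand: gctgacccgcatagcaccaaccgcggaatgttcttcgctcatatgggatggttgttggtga
vha-6, II:11435586-11435646, minus strand: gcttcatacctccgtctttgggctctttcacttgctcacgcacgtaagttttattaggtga
cpr-1, V:11976000-11976060, plus strand: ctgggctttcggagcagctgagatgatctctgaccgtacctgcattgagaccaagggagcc
vit-2, X:5101215-5101275, plus strand: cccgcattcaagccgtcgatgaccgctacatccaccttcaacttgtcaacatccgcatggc
Within 100 bp of these 6 summits GC content was 57.7% at asp-1, 46.8% at ifp-1, 49.8% at fat-5, 44.8% at vha-6, 52.7% at cpr-1 and 58.7% at vit-2. All of them were above the median of 43.3% over all pooled regions.

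Over all of their 70 regions, the intestine genes had higher GC content and more coding sequence than other genes. The 70 regions were distinct, with no region in the windows of 2 members, and 7 also lay in the window of a gene outside the list. Their median GC content was 47.3% (27.4% to 58.7%), against 43.3% over the 24235 regions of other genes only. Coding sequence held 41 of the 70 summits (58.6%), against 42.2% in other genes; introns held 17, upstream bases 11 and untranslated exons 1. Coding sequence also made up more of the windows, 42.7% in the intestine genes and 29.2% in other genes. Per length of coding sequence the values were close, 4.81 summits per 10 kb in intestine genes and 4.70 in other genes, and in the upstream 1000 bp they were 2.75 and 2.85. Signal and GC content had a Spearman's rho of 0.376 over the 70 regions and 0.383 over all 30000, given as a description since regions share libraries and base composition.

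**Figure D2:**
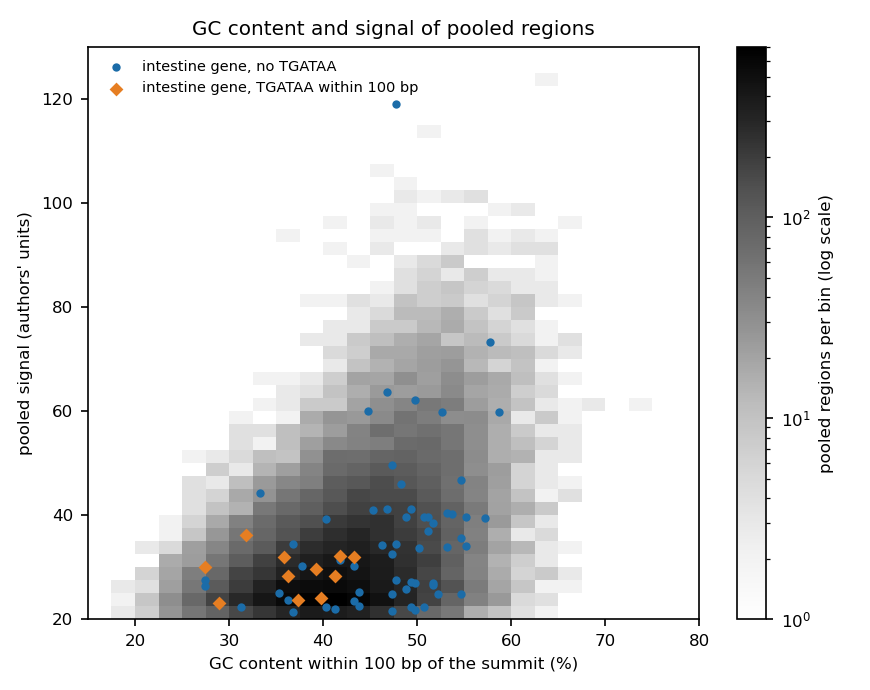
Pooled signal (vertical axis, authors' units) against GC content within 100 bp of the summit (horizontal axis, %) for the 70 regions of intestine genes (blue circles without TGATAA, orange diamonds with it) over a grey count of all pooled regions on a log scale, of which 18 of 30000 lie outside the axes. The 11 regions with TGATAA sit at signals of 23.1 to 36.2, below the 24 strongest regions.

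Regions with TGATAA had a lower median signal than regions without it, though one near the median of 30.5 over all pooled regions. In 11 of the 70 regions (15.7%, interval 8.11 to 26.4) a TGATAA was found no farther than 100 bp from the summit, and this was so in 12.6% of the regions of other genes only. Their median signal was 29.7, against 33.8 for the 59 regions of intestine genes without it, and their median GC content was 37.3%, against 48.3%. The same order held over all pooled regions, at 29.0 against 30.7 in signal and 39.8% against 43.8% in GC content, so signal, motif and GC content moved together and their separate parts were not tested. The 11 regions belonged to 10 genes, and 5 of them were upstream of the gene, at ifd-1, lys-1, pept-1, haf-9 and vit-4. The strongest of the 11, in lys-8, ranked 9614 of 30000.

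**Figure D3:**
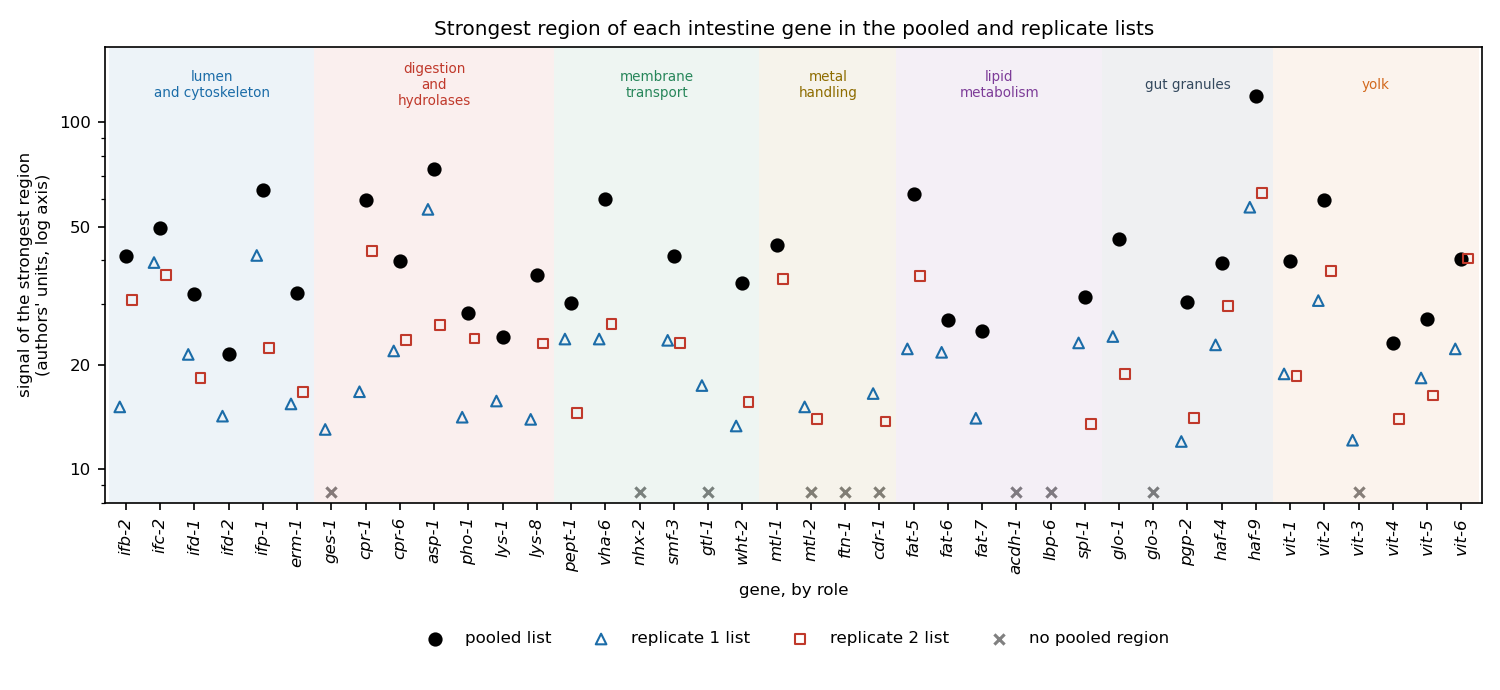
Signal of the strongest region (vertical log axis, authors' units) of each of the 40 genes, ordered by role along the horizontal axis, in the pooled list (black circles), the replicate 1 list (blue triangles) and the replicate 2 list (red squares); grey crosses mark the 10 genes with no pooled region. The strongest pooled signal, 119 at haf-9, stands apart from the next, 73.3 at asp-1.

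Among the genes of the lumen and cytoskeleton, all 6 held a pooled region, and the strongest lay in ifp-1. ifb-2, ifc-2, ifd-1, ifd-2 and ifp-1 encode intermediate filament proteins of the terminal web beneath the apical membrane, and erm-1 encodes a protein that links that membrane to the cytoskeleton. The ifp-1 region at X:9677201-9677670, in coding sequence 2733 bp from the gene start, had a pooled signal of 63.7 (rank 1121, q-value 0.0397). Its signal was 41.3 in replicate 1 (rank 316) and 22.3 in replicate 2 (rank 8674), far apart in rank. ifc-2, the longest of the 40 genes, had 4 regions towards its far end, the strongest at X:645184-645653 in an intron with a pooled signal of 49.7 (rank 3323, q-value 0.18). That region matched signals of 17.2 in replicate 1 and 36.2 in replicate 2. A second ifc-2 region, in coding sequence at X:643633-644102, had 39.4 in replicate 1 and no match in replicate 2. The replicates thus had their highest ifc-2 signal at different places. ifb-2, the filament gene used as a marker of the intestinal terminal web, had its strongest region in coding sequence at II:5751133-5751602, with a pooled signal of 41.2 (rank 6430, q-value 0.371), 30.8 in replicate 2 and no match in replicate 1. The remaining filament genes were weaker, at 32 for ifd-1 and 21.5 for ifd-2, near the lowest signal in the list. erm-1 reached 32.1.

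Digestion and hydrolase genes had the densest regions of the 7 roles, 5.70 summits per 10 kb, with 6 of 7 genes holding one. asp-1 encodes an aspartyl protease, and its strongest region, at V:19049820-19050289 in coding sequence 697 bp from the start, had a pooled signal of 73.3 (rank 522, q-value 0.0163). Its signal was 56.1 in replicate 1, rank 40 of 30000, and 16.1 in replicate 2, rank 20362. The replicates were far apart at this region, with a mean of 36.1 ± 28.3 (SD, n = 2). cpr-1, a cathepsin B-like cysteine protease gene, showed the opposite order. Its region at V:11975795-11976264, in coding sequence, had a pooled signal of 59.9 (rank 1492, q-value 0.0654), with 16.7 in replicate 1 and 42.6 in replicate 2, rank 486. The related protease gene cpr-6 had 1 region with a pooled signal of 39.7, and its replicates were close, at 21.9 and 23.5. The lysozyme genes lys-8 and lys-1 reached 36.2 and 24.0, and pho-1, an intestinal acid phosphatase gene, 28.2.

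ges-1, the gut esterase gene long used as a marker of intestinal differentiation, had no pooled region in its 5485 bp window. Its only region in a replicate list was in replicate 1, with a signal of 13.0 and rank 23980, and replicate 2 had none. Its 300 base promoter held no TGATAA, and its window held 3 in the gene body. That promoter did hold AGATAA, another of the GATA hexamers, as its reverse complement TTATCT. The promoter was placed at the outermost annotated start.

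Of the membrane transport genes, 4 of 6 had a pooled region, led by vha-6. vha-6 encodes the intestinal subunit a of the V-ATPase, the proton pump of the apical membrane. Its region at II:11435381-11435850, in coding sequence 2836 bp from the start, had a pooled signal of 60 (rank 1486, q-value 0.0656). The replicates were close there, at 23.7 and 26.2, a mean of 25 ± 1.83 (SD, n = 2). pept-1 had a region at the gene start, X:6456603-6457072, with its summit 34 bp upstream and 2 TGATAA within 100 bp, but a low pooled signal of 28.3 (rank 17629), with 11.4 in replicate 1 and 14.1 in replicate 2. The other pept-1 region, in the untranslated far end of the gene, had 30.1. smf-3, a divalent metal transporter gene, reached 41.2 and wht-2, an ABC transporter gene of the White family, 34.4. nhx-2, a sodium-proton exchanger gene, and gtl-1, a TRPM-type channel gene, had no pooled region. The gtl-1 window of 11652 bp was the second longest of the 40, and its highest signal in a replicate list was 17.4, in replicate 1.

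Of the metal handling genes 1 of 4 had a pooled region (exact 95% interval 0.631 to 80.6). Their windows were short, and other genes had a region in 40.1% of windows up to 2000 bp and 51.4% of those over 2000 and up to 3000 bp. mtl-1 and mtl-2 encode metallothioneins, ftn-1 a ferritin and cdr-1 a cadmium-responsive protein. The mtl-1 region at V:6691512-6691981 had its summit in an intron 116 bp from the start, with a pooled signal of 44.2 (rank 5090, q-value 0.297). It was matched in replicate 2, at 35.3 (rank 1406), and not in replicate 1. mtl-2 had no pooled region, but weak ones in both replicate lists, at 15.1 in replicate 1 and 13.9 in replicate 2. cdr-1 was similar, at 16.5 and 13.7, and ftn-1 had none in any list. The mtl-2 window of 1404 bp was the shortest of the 40.

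In lipid metabolism, fat-5 was the one gene of 6 with a region of q-value at most 0.05. fat-5 encodes a palmitoyl-CoA desaturase, and fat-6 and fat-7 stearoyl-CoA desaturases. The fat-5 region at V:17725260-17725729, in coding sequence 491 bp from the start, had a pooled signal of 62.2 (rank 1261, q-value 0.0488). It had 22.2 in replicate 1 and 36 in replicate 2, and neither replicate alone reached a q-value of 0.05 there. fat-6 and fat-7 had 1 region each, at pooled signals of 26.9 and 25, both matched in replicate 1 only. spl-1, a sphingosine phosphate lyase gene, had 3 regions of up to 31.4, also matched in replicate 1 only. acdh-1, an acyl-CoA dehydrogenase gene, and lbp-6, a lipid-binding protein gene, had none in any list.

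The yolk genes held 14 regions, and 12 of these had their summit in coding sequence (85.7%, against 42.2% of summits in other genes). How much of the yolk windows is coding sequence is not given, so its part in this count was not tested. vit-1 to vit-6 encode vitellogenins, the large yolk lipoproteins, which are made in the intestine of the adult hermaphrodite. The strongest was at the start of vit-2, X:5101010-5101479, with its summit 203 bp into the gene and a pooled signal of 59.9 (rank 1495, q-value 0.0659). Its replicates had 30.6 and 37.2, a mean of 33.9 ± 4.66 (SD, n = 2). vit-6 had the most regions of the family, 6 spread along the gene, all in coding sequence and at pooled signals of 21.7 to 40.4. One of them had 15.1 in replicate 1 and 40.5 in replicate 2 (rank 658), so here too the replicates differed. vit-1 had 2 regions of up to 39.7, vit-5 had 2 of up to 27.1, vit-4 had 1 upstream at 23.1 and vit-3 had none. vit-3, vit-4 and vit-5, the 3 with no region over 27.1, also hold the most repeated sequence: 33.1% of the 36-mers in the window of vit-3, 30% in that of vit-4 and 51.9% in that of vit-5 occurred once in the genome, against 83.8% for vit-1, 83.4% for vit-2 and 100% for vit-6. vit-3 shared 75.4% of its 36-mers with vit-4 and 49.8% with vit-5. How reads from repeated sequence were treated is not given in the sources used here, and its part in the counts was not tested.

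The yolk promoters held 8 TGATAA sites. None lay in a pooled region, but 9.83% of the promoter sites of other genes did, and a count of 0 among 8 is near that background. They are shown with 10 bases on each side, in the direction of the gene, so that the neighbouring bases can be compared across the family.
vit-1, X:7727787-7727812, plus strand: aattaaagccTTATCAgtgcgctaaa
vit-2, X:5100873-5100898, plus strand: aatttgtttcTGATAAgggtcacaaa
vit-2, X:5100924-5100949, plus strand: atcaatgagcTTATCAatgcgctaaa
vit-3, X:3572622-3572647, minus strand: ctatttacaaTGATAAaacttcaata
vit-4, X:3564087-3564112, minus strand: caatttgcgcTGATAAgcattaaatg
vit-4, X:3564125-3564150, minus strand: tctgcaacttTGATAAtatattttca
vit-5, X:3403335-3403360, plus strand: cagtttcaacTGATAAtgcggtaaaa
vit-6, IV:8261005-8261030, plus strand: tctcaatgacTGATAAgcatgctgag

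The gut granule genes held the strongest region and the only IDR peak of the 40 genes. Gut granules are lysosome-related organelles of the intestine: glo-1 encodes a Rab GTPase needed to form them, glo-3 another protein of their biogenesis, and pgp-2, haf-4 and haf-9 ABC transporters of their membrane. The haf-9 peak at I:6082591-6083060, in an intron 1044 bp from the gene start, had a pooled signal of 119 (rank 24, q-value 0.00234). Its signal was 56.9 in replicate 1 (rank 36) and 62.5 in replicate 2 (rank 40), a mean of 59.7 ± 3.99 (SD, n = 2). haf-9 was the only member with a q-value of at most 0.05 in the pooled list and in both replicate lists, a state shared by 364 (1.83%) of the other genes. The haf-9 summit lay 21 bp from the snoRNA gene ZK484.9 (I:6082738-6082805), on the opposite strand within the same intron, and no other member summit had a snoRNA or tRNA gene within 500 bp. The part of that gene in the signal was not tested. haf-4, which encodes the partner of HAF-9, had 7 regions, the most of any member, at signals of up to 39.2. glo-1 had 3 intronic regions, the strongest at X:9874355-9874824 with a pooled signal of 46.0 (rank 4396, q-value 0.251). Its signal was 21.7 in replicate 1 and 18.8 in replicate 2. Another of the 3, with a pooled signal of 32.6, also had its summit in coding sequence of the gene R07B1.9. pgp-2 had 1 region at 30.3 in a window of 10361 bp, and glo-3 had none in any list.

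**Figure D4:**
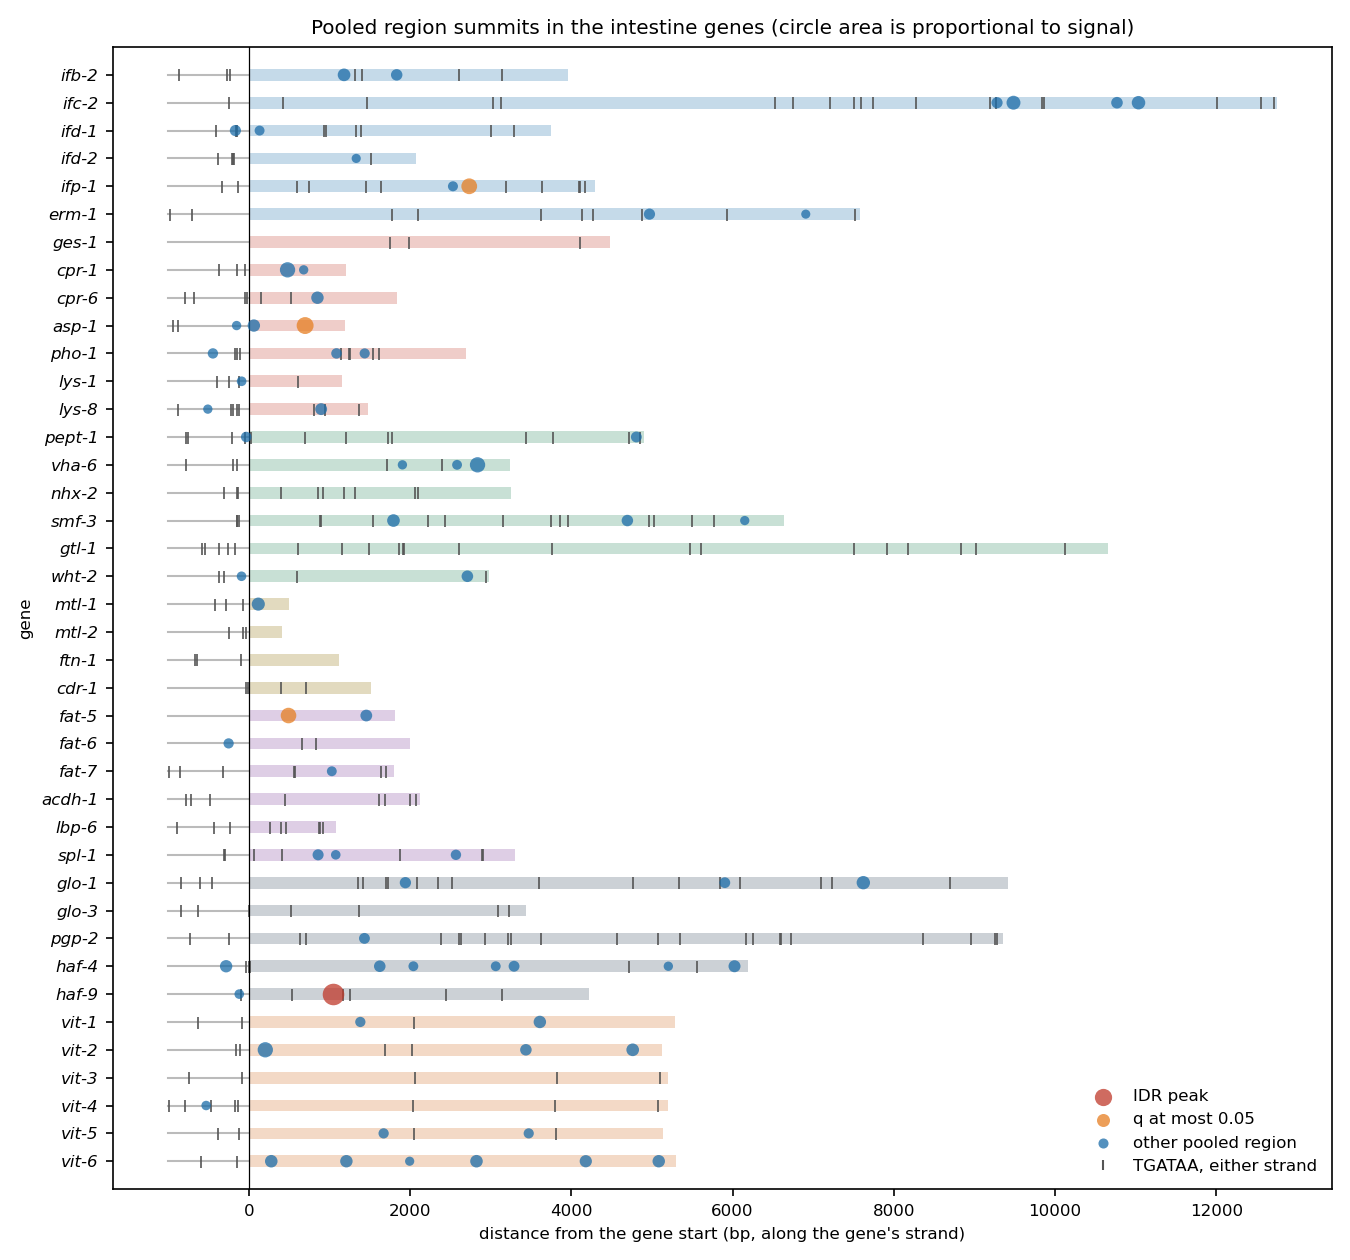
Position of each pooled summit (circles, area proportional to signal; red for the IDR peak, orange for q at most 0.05, blue for the rest) and each TGATAA (ticks) in the 40 genes, as distance in bp from the gene start along the gene's strand; shaded bars are gene bodies and grey lines the 1000 bp upstream. Of the 70 summits 11 lie upstream, and the 4 red and orange circles all lie inside gene bodies.

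No pooled region was found in 10 members: ges-1, nhx-2, gtl-1, mtl-2, ftn-1, cdr-1, acdh-1, lbp-6, glo-3 and vit-3. Of these, 5 had none in either replicate list, which were nhx-2, ftn-1, acdh-1, lbp-6 and glo-3. The windows of the 10 had a median length of 3686 bp and a median GC content of 34.3%, against 4850 bp and 36.9% for the 30 with a region. They held 73 TGATAA sites, a count that was not set against their length and so has no matching background. Of the 10 promoters, 8 had at least 1 TGATAA, which is near the 75% over all members. A missing region says only that the window had none among the 30000 strongest, not that the protein was absent.

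The replicates were close at some regions, among them those of haf-9, vha-6 and cpr-6, and far apart at others, such as asp-1 and cpr-1. The replicate 1 list had a region in 33 of the 40 genes (61.7% of other genes) and the replicate 2 list in 28 (61.5% of other genes). Both lists had one in 26 (65%), against 47.9% of the other genes, and against 57.1% (22.8 of 40 genes) at the rates of other genes in the same length classes. Of the 70 pooled regions, 41 (58.6%) overlapped a region in each replicate list, 18 one in replicate 1 only and 11 one in replicate 2 only; over the regions of other genes only, 56.6% overlapped both. Across the 41, which matched 38 distinct pairs of replicate regions, Spearman's rho between the replicate signals was 0.365, against 0.232 across the 13723 regions of other genes only. Both are descriptions over regions of the same libraries. The signal was higher in replicate 2 at 32 of the 41 and higher in replicate 1 at 9. Each replicate list has its own scale, so means and SDs over the replicates include any difference in scale. At a q-value of at most 0.05, replicate 1 alone had asp-1, haf-9, ifc-2 and ifp-1 (4 genes, 6.14% of others), and replicate 2 alone had cpr-1, haf-9 and vit-6 (3 genes, 4.19% of others). Of the 4 genes called in the pooled list, asp-1 and ifp-1 were therefore not called without replicate 1, and fat-5 was called in neither replicate alone.

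**Figure D5:**
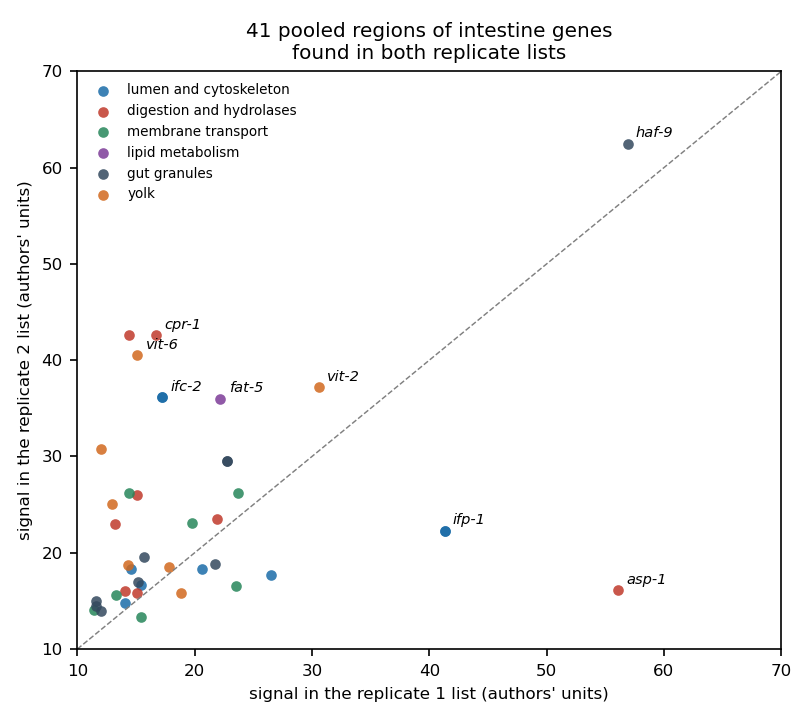
Signal in the replicate 2 list (vertical axis) against the replicate 1 list (horizontal axis), in the authors' units, for the 41 pooled regions of intestine genes found in both, coloured by role; the dashed line marks equal values and some points coincide because neighbouring regions match the same replicate region. haf-9 is high in both, at 56.9 and 62.5, while asp-1 is high in replicate 1 only, at 56.1 against 16.1.

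Genes of the same families and pathways, and genes of 2 other tissues, gave values on both sides of these. The related list held 55 genes, largely further members of the protease, lysozyme, desaturase, lipid-binding, cdr and transporter families; some, such as rme-2, the yolk receptor of oocytes, act outside the intestine. As protein-coding genes, 54 were found. A pooled region was present in 38 of these 54 (70.4%), with a median strongest signal of 31.3, and 3 had one with a q-value of at most 0.05: act-5, the actin of the microvilli, at 87.1, cpr-4, a cysteine protease gene, at 80.8, and nhx-6, a sodium-proton exchanger gene, at 62.2. TGATAA lay in 31 of the 54 promoters (57.4%). Of 25 muscle genes all had a pooled region, 6 with a q-value of at most 0.05, led by unc-54, a myosin heavy chain gene, at 87.9. Of 27 neuronal genes 21 had a pooled region, and 4 had one with a q-value of at most 0.05, led by cha-1 and unc-17, which share a locus and a region, at 101. The median windows were 2659 bp for the related genes, 6357 bp for muscle and 5941 bp for neurons. TGATAA lay in 7 of 25 muscle promoters and 5 of 27 neuronal promoters. A region with a q-value of at most 0.05 was thus present in 10% of the 40 intestine genes, 5.56% of the related genes, 24% of the muscle genes and 14.8% of the neuronal genes, against 5.66% of all protein-coding genes outside the 40. Promoter TGATAA was present in 75% of the intestine genes, 57.4% of the related genes, 28% of the muscle genes and 18.5% of the neuronal genes, against 30.1%. These differences were not tested.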

How the data were processed

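ChIP-seq of GFP-tagged ELT-4 was analysed from 2 biological replicates of 1 group. Regions were called by the authors from alignments against a control file, on each replicate and on both pooled, and filtered by IDR, per the notes deposited with the samples; not given in the sources used here were the aligner, caller, versions, multi-mapping rule and the limit used for IDR. The deposited lists hold a signal value per region (scale not stated) and a −log10 q-value. The ce11 lists were used, and the ce10 lists and the control were not. No counts were used, so depth is unknown.

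WBcel235 is the assembly that ce11 names, and all 48 annotated start codons of the members read ATG. Genes came from Ensembl release 115 and sequence from the RefSeq copy of WBcel235. Coordinates are 1-based. A replicate region matched a pooled region by at least 1 bp of overlap, with the nearest summit taken. GC content and motifs were read in 201 bp at the summit, and 36-mers were called unique when they occurred once on either strand. No test between gene lists was made: the members and lists were chosen with earlier results of these data known, and values are set beside those of all other genes. Every member is accounted for; full values were given for the IDR peak, the 10 strongest members, the vitellogenins, ges-1, pept-1, ifb-2, mtl-1 and mtl-2. Intervals are exact Clopper-Pearson 95% intervals. Python 3.11.15 with numpy 2.4.6, pandas 2.3.3, scipy 1.17.1 and matplotlib 3.10.9 was used. The alternatives were other windows, overlap rules, q-value limits, motif windows and motifs, unique sequence and each replicate list alone.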

Additional observations from a re-analysis of the deposited data

How the results depend on the processing

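Restricting windows to 1000 bp upstream and 200 bp downstream of the gene start moved every quantity recomputed there: 12 of the 40 genes had a pooled region (29.7% of other genes), 0 had one with a q-value of at most 0.05 (1.58% of others), 0 had an IDR peak (0.462% of others), the median strongest signal was 27.2, below the 31.1 of other genes, 35.7% of 14 regions held TGATAA, and 15 of the 54 related genes had a region. This alternative drops most of each gene body by construction. With a q-value limit of 0.01 the count of genes was 1 (1.37% of others), and with 0.1 it was 7 (8.41% of others). TGATAA lay in 32.9% of regions within 250 bp of the summit, and the 4 GATA hexamers gave 32.9% within 100 bp; both search more sequence or letters by construction. The share was 10% within 50 bp, which searches less, and 10.2% in gene bodies only, where the upstream regions are dropped. Without one replicate or the other the median strongest signal was 18.8 to 23.0, on the replicate lists' own scales, against 18.8 to 21 in other genes, and the genes with a region numbered 28 to 33, and TGATAA lay in 11.5% to 25.3% of regions. For these TGATAA shares of regions, the share over regions of other genes under the same setting is not given. They therefore have no matching background and cannot be read as enrichment. With 500 or 2000 bp upstream, gene bodies only, any overlap and unique sequence, the counts of genes stayed within 1.5 times. In 1000 bases before the start, 37 of 40 genes had TGATAA, against 66.0% of other genes. With the pooled summit inside the replicate region, 33 of 70 regions matched both replicates. No paired analysis was possible because there was 1 group. Unknown depth limits all signals.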

Other observations

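The hexamer with the letters of TGATAA in reverse order, AATAGT, has the same base composition and was searched in the same 300 base promoters. It lay in 8 of the 40 promoters of the intestine genes (20%), against 21.9% of the promoters of other genes, where TGATAA gave 75% against 30.1%. Median GC content of the promoters was 36% in the intestine genes and 34.3% in the other genes. In the 54 related genes AATAGT lay in 22.2% of promoters and TGATAA in 57.4%.

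Summits inside gene bodies were spread along them. Of the 59 in the intestine genes, 18 lay in the opening part of the gene, 19 in the middle and 22 in the closing part, with bodies divided into 3 equal parts, which is 30.5%, 32.2% and 37.3%; in other genes the shares were 32%, 35.2% and 32.8%.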
